A study of Mus musculus with 10 samples.

Results

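Major urinary proteins (MUPs) are small barrel-shaped proteins of the lipocalin family that hepatocytes secrete into the blood and that mice excrete in the urine, where they carry and slowly release volatile pheromones. Their genes lie in one cluster on chromosome 4 and are expressed at higher levels in the male than in the female liver. In male mice, pulses of growth hormone acting through its receptor, the kinase JAK2 and the transcription factor STAT5B maintain this expression. The genes described here are 10 *Mup* genes, *Mup1*, *Mup2*, *Mup3*, *Mup7*, *Mup9*, *Mup12*, *Mup14*, *Mup15*, *Mup20* and *Mup21*, out of 20 numbered *Mup* symbols and 24052 gene symbols listed. They were chosen by symbol, with their lower levels in Ndrg3 LKO livers already known. The genotype difference of these 10 genes is therefore given as a description, without a test.

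RNA was sequenced from the livers of 5 wild-type and 5 Ndrg3 LKO mice on a C57BL/6 background (the floxed allele had been backcrossed to C57BL/6N), all with free access to food, with 1 library per liver. Ndrg3 LKO mice carry floxed *Ndrg3* alleles and a Cre recombinase driven by the albumin promoter, a promoter active in hepatocytes, so that exon 4 is removed there and not throughout the liver. In the study, wild-type littermates served as controls. Whether the wild-type mice carried Cre is not stated, and neither are their *Ndrg3* alleles. The last cross described had a homozygous floxed parent, so each littermate from it would carry at least 1 floxed allele. The age and sex of the sequenced mice are not in the labels. Males were used unless stated otherwise, and the age is given differently in different places of the study's text. The Y-linked genes *Ddx3y*, *Eif2s3y*, *Kdm5d* and *Uty* were counted in all 10 livers, and *Xist* did not exceed 0.112 CPM in any.

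The libraries held 20872262 to 30450057 counts each, and levels are CPM, counts divided by the library size in units of 1e+06 counts after TMM scaling. *Ndrg3* was 15.9 to 21.9 CPM in wild-type and 7.07 to 9.16 CPM in Ndrg3 LKO livers (log2 fold change −1.20 ± 0.13 (SE), n = 5 per group, adjusted p = 3.87e-05 by edgeR's quasi-likelihood test), counted over the whole gene and not over exon 4 alone. Of 11208 genes tested, 48.6% differed between the genotypes at an adjusted p under 0.05, with 23.0% lower and 25.6% higher in Ndrg3 LKO livers (2578 and 2865 genes, but 1010 and 5821 with library-size scaling). Against so wide a change, a gene that differs is not unusual, and each count below is set beside these shares. The gene lists were chosen with earlier results of these data known, so their counts serve as descriptions. Ndrg3 LKO replicate 5 stood apart from the other 4 livers of its group: on the first principal component, which held 68.7% of the variance, it lay at 14.1, between the other Ndrg3 LKO livers (51.1 to 56.6) and the wild-type livers (−49.9 to −43.0). Counts of genes are therefore also given without it. The study's figures of its RNA and metabolite data give 5 wild-type and 4 Ndrg3 LKO livers. They do not say which Ndrg3 LKO liver is missing.

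The 10 genes spread over a *Mup* cluster that is 1842 kb long on chromosome 4 of mm9, from *Mup4* at 59969676 to the end of *Mup21* at 61811897, and all 10 are annotated on the minus strand. *Mup7* (chr4:60079342-60083283) is the first of them, and *Mup20* (chr4:61711268-61715192), *Mup3* (chr4:61744510-61748376) and *Mup21* (chr4:61808966-61811897) lie together at the far end. Each was annotated with 7 exons, except *Mup21* with 6, and 20 *Mup* pseudogenes are annotated on the same chromosome. By coding sequence the 10 genes fell into 2 sets. *Mup1*, *Mup2*, *Mup7*, *Mup9*, *Mup12*, *Mup14* and *Mup15* were 98.7% to 99.6% identical to each other, the near-identical genes from here on. *Mup3*, *Mup20* and *Mup21*, the distinct genes, shared 82.2% to 91.0% of bases with those 7 and 86.7% to 94.8% with each other.

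A stretch of 60 coding bases shows what separates the genes. It was picked as the stretch without alignment gaps that had the largest number of differing positions. The 10 genes differ at 25 of its 60 positions, against 125 of 555 in the whole alignment. Other stretches without gaps therefore separate the genes at as many positions or fewer. It starts at coding base 212 in the near-identical genes, 215 in *Mup20* and *Mup21* and 224 in *Mup3*, and is read 5′ to 3′ from the mm9 transcripts. Capitals mark bases unlike the majority of the 10 genes. *Mup2*, *Mup12*, *Mup14* and *Mup15* have exactly the sequence shown for *Mup1*, *Mup9* differs from it at 1 base and *Mup7* at 2, whereas *Mup20*, *Mup21* and *Mup3* differ at 11, 19 and 21 bases.
Mup1: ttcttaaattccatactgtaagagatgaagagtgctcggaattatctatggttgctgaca
Mup9: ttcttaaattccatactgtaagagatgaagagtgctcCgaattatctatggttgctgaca
Mup7: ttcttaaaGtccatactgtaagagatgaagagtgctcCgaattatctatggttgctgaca
Mup20: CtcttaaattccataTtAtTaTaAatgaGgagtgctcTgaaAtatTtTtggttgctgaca
Mup21: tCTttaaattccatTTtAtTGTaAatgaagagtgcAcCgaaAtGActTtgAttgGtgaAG
Mup3: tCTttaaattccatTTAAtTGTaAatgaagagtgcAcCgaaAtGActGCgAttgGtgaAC

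The share of 100-base stretches that can be assigned to 1 gene followed these sets. Of all positions in the transcript, 96.9% in *Mup3*, 95.5% in *Mup21* and 61.2% in *Mup20* began a stretch of 100 bases unique to the gene. Unique here means found in no transcript of another gene among those searched. In the near-identical genes the share was 22.5% for *Mup12*, 14.9% for *Mup9*, 12.9% for *Mup7*, 12.8% for *Mup1*, 8.60% for *Mup14* and 2.66% for each of *Mup2* and *Mup15*. In addition, the annotated span of *Mup2* overlaps most of *Mup7*, and that of *Mup15* most of *Mup14*. Reads were sequenced in pairs, which can place more of them than a single stretch can. The study's methods name the count module of STAR, which by its usual design counts only reads that map to 1 place and overlap 1 gene, while the processing notes also list Cufflinks. Its settings are not given in the sources used here. Under such a rule most reads of the near-identical genes would not be counted, so their levels, single and joint, are uncertain, and those of *Mup3* and *Mup21* depend less on it.

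The 10 genes together took 2.35% to 3.62% of all counts in wild-type livers and 0.0964% to 0.397% in Ndrg3 LKO livers. Their summed level in the 5 wild-type livers was 32559, 34615, 28337, 26642 and 44982 CPM, and in the 5 Ndrg3 LKO livers 3318, 844, 731, 2872 and 3777 CPM. The groups were far apart, and the lowest wild-type sum was 7.05 times the highest Ndrg3 LKO sum. The mean was 33427 ± 7205 CPM against 2308 ± 1425 CPM (SD, n = 5 each), a 14.5-fold difference, or −4.14 as the difference of mean log2 levels. Within groups, the highest sum was 1.69 times the lowest in wild-type and 5.17 times the lowest in Ndrg3 LKO livers. In a bulk sample, fewer hepatocytes and less *Mup* RNA per hepatocyte cannot be told apart.

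*Alb*, which encodes the main plasma protein made by hepatocytes, gave another scale for the same RNA. Per 100 *Alb* counts, the 10 genes had 28.1, 43.0, 29.6, 28.8 and 51.5 counts in wild-type livers and 12.6, 3.89, 3.49, 12.8 and 3.50 in Ndrg3 LKO livers. The groups did not overlap on this scale either, with a mean 5.0-fold lower in Ndrg3 LKO livers (−2.55 as the difference of mean log2 ratios). *Alb* itself was 80485 to 115763 CPM in wild-type livers and 20929 to 26338 CPM in 4 of the Ndrg3 LKO livers, but 107850.0 CPM in replicate 5. That liver thus had wild-type levels of *Alb* and a summed *Mup* level in the Ndrg3 LKO range.

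**Figure D1:**
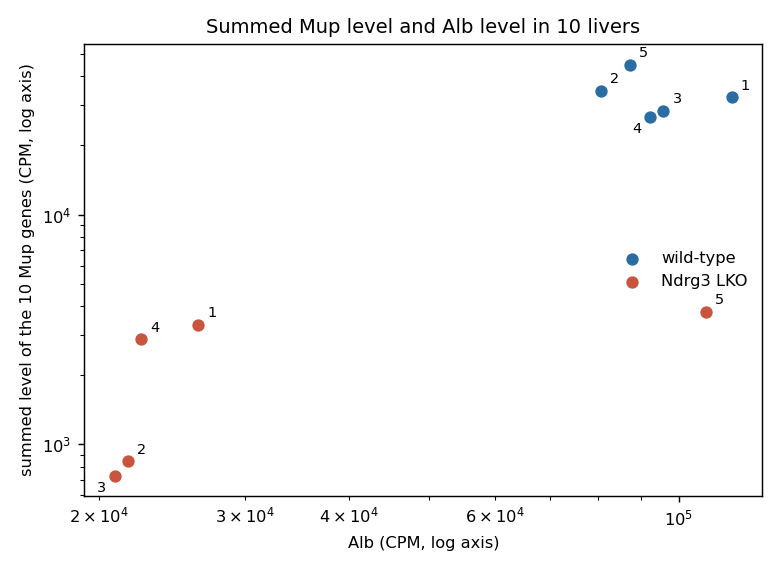
Each point is 1 liver, labelled with its replicate number, with the Alb level on the horizontal axis and the summed level of the 10 Mup genes on the vertical axis, both in CPM on log axes. Ndrg3 LKO replicate 5 lies among the wild-type livers for Alb (107850.0 CPM) and among the Ndrg3 LKO livers for the summed Mup level (3777 CPM).

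All 10 genes passed the filter on low counts (1 CPM of the unscaled library in 5 livers) through their wild-type livers, and *Mup2*, *Mup9*, *Mup12* and *Mup15* reached it in 0 Ndrg3 LKO livers. In each of the 10 genes every Ndrg3 LKO liver was below every wild-type liver. Of all genes tested, 15.9% had such a gap in this direction, and because the members were chosen on this contrast nothing is read from the comparison. The median log2 fold change of the 10 genes was −7.92, also with *Mup15* set at its bound (given with that gene), whereas that of all genes tested was 0.03. Without Ndrg3 LKO replicate 5 the medians were −7.82 and 0.03.

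*Mup3* was the most abundant member and ranked between 5 and 7 among all genes by counts in the wild-type livers. Its level was 16346, 15515, 16983, 13230.2 and 19545 CPM in wild-type livers and 2266, 621, 490.4, 2182 and 3361 CPM in Ndrg3 LKO livers. It differed least among wild-type livers, with a coefficient of variation of 14.0%, and had the smallest difference between genotypes of the 10, with a log2 fold change of −3.19 ± 0.49 (SE). In Ndrg3 LKO livers its rank ranged from 32 to 218, so *Mup3* RNA was still among the abundant RNAs of those livers.

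*Mup20* encodes darcin, the male-specific MUP that acts as a sex pheromone in urine and makes females remember a male's scent mark. Its level was 7821, 7209.9, 6222, 5795 and 12889 CPM in wild-type livers and 999, 211, 178, 549.6 and 387 CPM in Ndrg3 LKO livers. Wild-type replicate 5 was the highest of its group, and the log2 fold change was −4.10 ± 0.49 (SE). *Mup21*, the third of the distinct genes, was 592, 819.7, 904, 518 and 881 CPM in wild-type livers and 11.4, 3.34, 1.18, 11.1 and 22.6 CPM in Ndrg3 LKO livers, a log2 fold change of −6.23 ± 0.70 (SE). *Mup21* thus differed more than *Mup3*, its closest relative in sequence (94.8% identical) and its neighbour in the cluster. Per 100 *Mup3* counts there were 3.62 to 5.32 *Mup21* counts in wild-type livers and 0.241 to 0.672 in Ndrg3 LKO livers, without overlap.

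Among the near-identical genes, *Mup7* held the most counts. Its level was 6317, 8411, 3469.9, 5689 and 8945 CPM in wild-type livers and 36.4, 6.37, 58.8, 115 and 4.86 CPM in Ndrg3 LKO livers. The log2 fold change was −7.21 ± 0.91 (SE), and the Ndrg3 LKO livers spread over a 23.7-fold range. *Mup14* was 1003, 1954, 581, 1037 and 1959 CPM in wild-type livers and 2.18, 0.848, 0.772, 8.75 and 1.18 CPM in Ndrg3 LKO livers, with a log2 fold change of −8.89 ± 0.86 (SE), or −10.03 without Ndrg3 LKO replicate 4. Ndrg3 LKO replicate 4 was the highest of its group for both genes.

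*Mup1*, whose protein has been described as a circulating regulator of glucose and lipid metabolism, was 359, 408, 117, 279 and 533 CPM in wild-type livers. In Ndrg3 LKO livers it was 2.07, 0.388, 1.29, 4.33 and 0.848 CPM, a log2 fold change of −7.56 ± 0.68 (SE). *Mup12* was 113, 169.7, 54.1, 82.9 and 174 CPM in wild-type livers and 0.575, 0.121, 0.154, 0.769 and 0.283 CPM in Ndrg3 LKO livers, a log2 fold change of −8.28 ± 0.54 (SE). Both genes stayed detectable in every Ndrg3 LKO liver, *Mup1* with 16 to 152 counts and *Mup12* with 5 to 27.

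*Mup2* and *Mup15* had the fewest counts of the members over the wild-type livers and also the fewest unique positions. *Mup2* had 88, 302, 55, 124 and 186 counts in wild-type livers, and in Ndrg3 LKO livers 1 count in each of replicates 1 and 5 and 0 in the other 3. The ratio of the group levels was 682, with a 95% exact counting interval of 188 to 5639. *Mup15* had 36, 259, 30, 59 and 182 counts in wild-type livers and 0 in every Ndrg3 LKO liver. Against a floor of 3 counts over the whole Ndrg3 LKO group, it was at least 341-fold lower. Such intervals and floors cover counting error only.

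*Mup9* was the most uneven member, with wild-type counts of 37, 2070, 33, 34 and 576 and Ndrg3 LKO counts of 0, 3, 2, 3 and 5. In CPM, the highest wild-type liver (101 CPM, replicate 2) was 64.7 times the lowest (1.56 CPM, replicate 4). The other 9 genes differed at most 7.57-fold among wild-type livers. The log2 fold change of *Mup9*, −8.43 ± 1.55 (SE), therefore rests on a wild-type mean (28.2 ± 43.1 CPM, SD) to which replicate 2 contributed most.

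**Figure D2:**
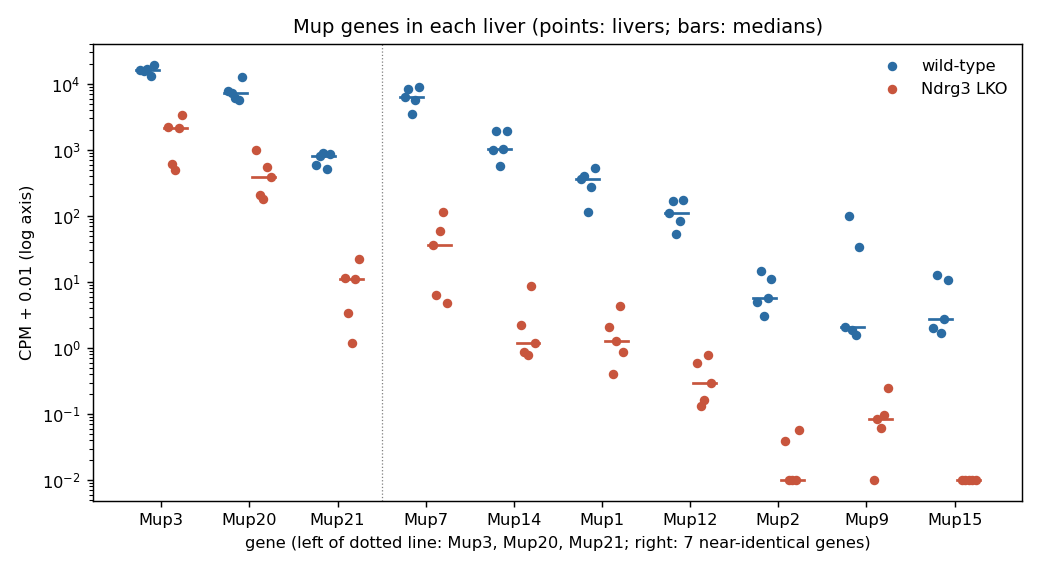
Each point is the level of 1 gene in 1 liver, as CPM plus 0.01 on a log axis, for 5 wild-type and 5 Ndrg3 LKO livers, and the short bars are medians. In all 10 genes the Ndrg3 LKO points lie below the wild-type points, by the smallest log2 fold change in Mup3 (−3.19), and the points at the bottom edge are livers with 0 counts.

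The make-up of the *Mup* counts differed as well as their amount. *Mup3* made up 50.2%, 44.8%, 59.9%, 49.7% and 43.5% of the counts of the 10 genes in wild-type livers and 68.3%, 73.6%, 67.1%, 76.0% and 89.0% in Ndrg3 LKO livers. The 7 near-identical genes together made up 24.0%, 32.0%, 14.9%, 26.6% and 25.9% in wild-type livers and 1.24%, 0.925%, 8.35%, 4.49% and 0.197% in Ndrg3 LKO livers. Neither share overlapped between the groups. In contrast, the share of *Mup20* overlapped, with 20.8% to 28.7% in wild-type and 10.2% to 30.1% in Ndrg3 LKO livers. Ndrg3 LKO replicate 5 was at the edge for each of these shares, with the highest share of *Mup3* and the lowest of *Mup20* and of the near-identical genes. These shares are fractions of counts within a liver, so they do not depend on the scaling of the libraries.

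**Figure D3:**
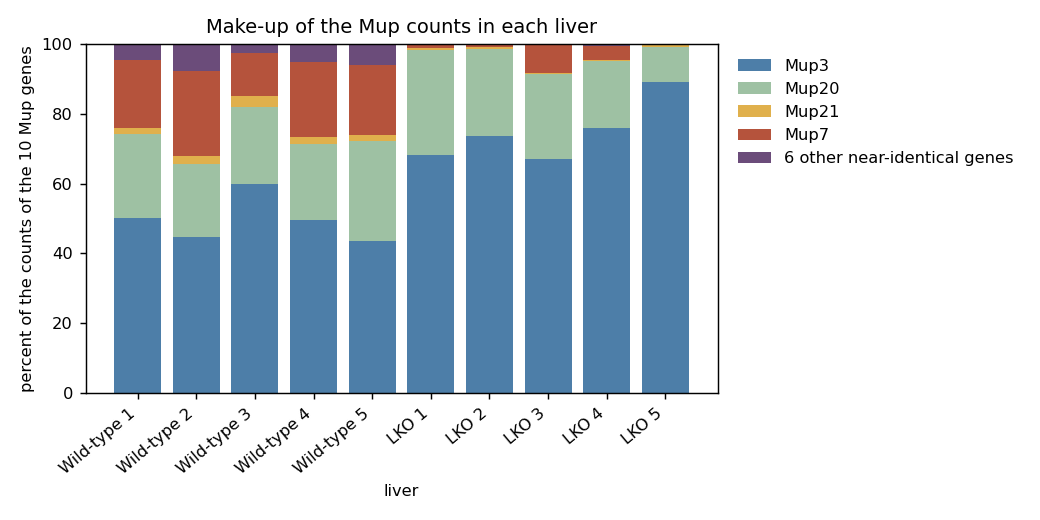
Each bar is 1 liver and shows the percent of the counts of the 10 Mup genes that fell on Mup3, Mup20, Mup21, Mup7 and the 6 other near-identical genes together. The near-identical genes, the upper 2 segments, take 14.9% to 32.0% in wild-type livers and 0.197% to 8.35% in Ndrg3 LKO livers, and Mup3 takes 67.1% to 89.0% in the latter.

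Within the near-identical set the proportions also varied among Ndrg3 LKO livers. Per 100 *Mup7* counts there were 15.9 to 23.2 *Mup14* counts in wild-type livers as against 1.31 to 24.3 in Ndrg3 LKO livers, the lowest in replicate 3 and the highest in replicate 5, where *Mup7* itself had only 103 counts. The livers also ranked differently by set. Wild-type replicate 3 was the lowest wild-type liver for 6 of the 7 near-identical genes (all but *Mup9*) and yet the highest for *Mup21*. Among Ndrg3 LKO livers, replicate 3 was the lowest for all 3 distinct genes and for *Mup14*, and shared the lowest value, 0, for *Mup2* and *Mup15*. Replicate 5 had the highest *Mup3* and *Mup21* and the lowest *Mup7*. The order of the livers thus differed between members.

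To compare levels between genes, CPM in wild-type livers was divided by transcript length. On this scale *Mup3* came first with 17403 ± 2445 CPM per kb (SD, n = 5), followed by *Mup20* with 8607 ± 3075 and *Mup7* with 7083 ± 2380, whose ranges overlapped. *Mup14* had 1413 ± 670.2 and *Mup21* 1097 ± 260.2 CPM per kb, again with overlapping ranges. *Mup1* (366 ± 167 CPM per kb) overlapped with *Mup12* (128 ± 57.1), and *Mup12* with *Mup9* (32.6 ± 49.9), while *Mup9*, *Mup2* (8.53 ± 5.23) and *Mup15* (6.46 ± 5.75) overlapped with each other. The order depends on which positions are taken to yield counts. When only the unique positions served as length, *Mup7* came first with 61368 CPM per kb of unique sequence, before *Mup3* (20079), *Mup14* (18405) and *Mup20* (15754). Counting of uniquely mapped reads, as named in the methods, would bring the unique length closer to the counts, but which length fits these counts was not tested.

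The other 10 numbered *Mup* genes were looked at only to place the members. Only *Mup6* and *Mup8* passed the filter on low counts, and both were picked out here after their values had been seen. *Mup8*, 98.7% to 99.4% identical to the near-identical genes, had 53, 156, 47, 98 and 147 counts in wild-type livers and 51, 3, 11, 21 and 1 in Ndrg3 LKO livers. In CPM it was below every wild-type liver in each Ndrg3 LKO liver, with a log2 fold change of −3.38 ± 0.68 (SE). *Mup6* was opposite in direction to all 10 members, and reached the filter in 1 wild-type and 5 Ndrg3 LKO livers. It had 12, 8, 11, 6 and 21 counts in wild-type livers and 1043, 271, 866, 197 and 55 in Ndrg3 LKO livers, which is 0.276 to 1.25 CPM against 2.59 to 29.98 CPM without overlap and a log2 fold change of 4.42 ± 0.71 (SE).

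*Mup6* is 89.0% to 89.9% identical to the near-identical genes. Every stretch of 100 bases in the 1 *Mup6* transcript checked is unique to the gene among the transcripts searched. Reads from that transcript can thus be told from those of the other annotated family members. The transcript is annotated on the plus strand at chr4:60016310-60020146, next to *Mup7*. The annotated gene starts further away, at 59977166, and *Mup6* counts from outside the checked transcript were not examined. The lowest Ndrg3 LKO level of *Mup6* was in replicate 5. Among the 8 untested genes, *Mup11* had 10 to 50 counts in wild-type and 0 in all Ndrg3 LKO livers, at least 104-fold lower against 3 counts over the group. *Mup13* had 18 to 118 counts against 0 to 3. *Mup10* had 8 to 14 counts against 0 to 5, and *Mup4*, *Mup5*, *Mup16*, *Mup17* and *Mup19* had at most 5 counts in any liver.

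**Figure D4:**
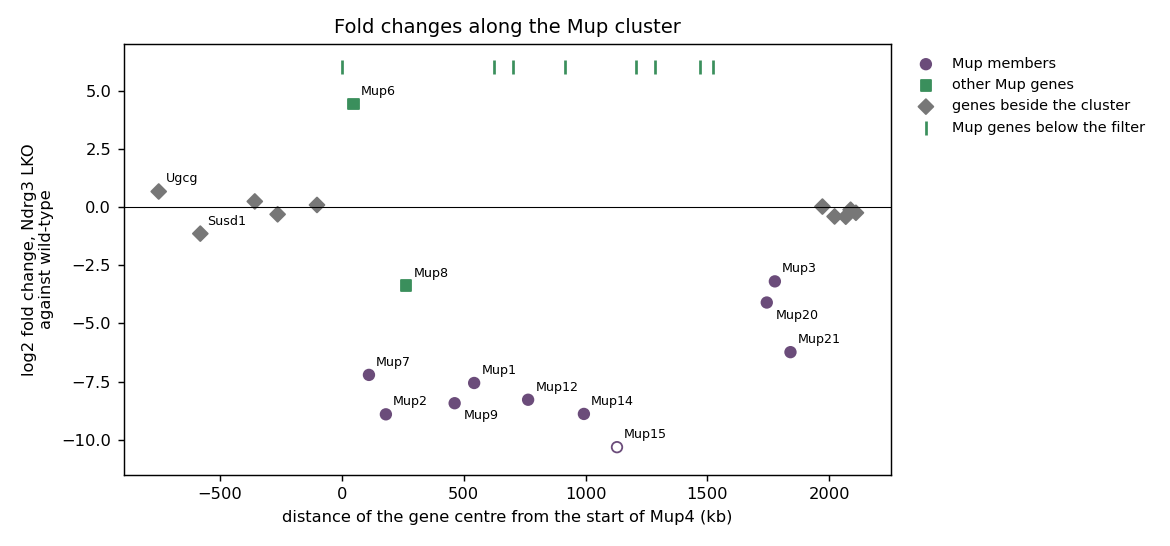
Each symbol is 1 gene, placed by the distance of its centre from the start of Mup4 in kb and by its log2 fold change in Ndrg3 LKO against wild-type livers, and ticks at the top mark Mup genes below the filter on low counts. Members lie between −3.19 (Mup3) and the open circle of Mup15, a fitted value that depends on the prior count because all its Ndrg3 LKO counts are 0, while Mup6 lies at 4.42 and the genes beside the cluster between −1.14 and 0.66.

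The genes on either side of the cluster were compared to see whether the difference extended beyond the *Mup* genes. Of the 5 nearest tested genes on each side, 1 rose, 3 fell and 6 did not pass the test, beside 48.6% of all genes that differed in either direction. *Ugcg*, the glucosylceramide synthase gene 734 kb before *Mup4*, rose from 15.4 to 23.8 CPM in wild-type to 27.4 to 31.2 CPM in Ndrg3 LKO livers (log2 fold change 0.66 ± 0.13 (SE), edgeR adjusted p = 0.00183). *Susd1* fell by 1.14 ± 0.14 on the log2 scale (edgeR adjusted p = 8.09e-05). On the other side, *Fkbp15* fell by 0.41 ± 0.12 (edgeR adjusted p = 0.0143) and *Slc31a1*, the copper importer gene, by 0.42 ± 0.13 (edgeR adjusted p = 0.0189). With library-size scaling *Fkbp15* and *Slc31a1* changed direction (0.13 and 0.10). On that scale 2 neighbours rose and 1 fell, beside 5821 higher and 1010 lower of all 11208 genes. *Snx30*, 52.1 kb from *Mup4*, had a log2 fold change of 0.09 ± 0.21, and *Slc31a2*, 112 kb beyond *Mup21*, one of 0.02 ± 0.20.

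Growth hormone signalling controls *Mup* expression in the male liver, and 23 of 24 listed genes of this axis were tested. The shares beside which they stand are 23.0% of all genes lower and 25.6% higher. Of the 23 genes 8 fell, 2 rose and 13 did not pass the test (median log2 fold change −0.23), and without Ndrg3 LKO replicate 5 the counts were 9 and 3, beside 27.2% and 28.4% of all genes. With library-size scaling 5 fell and 5 rose, beside 1010 lower and 5821 higher of all 11208 genes. *Ghr*, the growth hormone receptor, was 489, 454, 466, 557 and 466 CPM in wild-type livers and 149.8, 91.4, 105, 111 and 303 CPM in Ndrg3 LKO livers. It fell by 1.68 ± 0.30 on the log2 scale (edgeR adjusted p = 9.40e-04), and replicate 5 was the highest of its group.

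*Jak2*, the kinase bound to that receptor, fell by 0.44 ± 0.14 (edgeR adjusted p = 0.0186) with TMM scaling and had a log2 fold change of 0.09 with library-size scaling. *Stat5b*, which carries the male growth hormone signal, was 30.8 to 44.8 CPM in wild-type and 26.8 to 46.1 CPM in Ndrg3 LKO livers (log2 fold change −0.15 ± 0.17). *Stat5a* was 6.57 to 11.6 and 7.45 to 11.0 CPM (log2 fold change 0.06 ± 0.18), and neither gene passed the test. With library-size scaling *Stat5a* did (log2 fold change 0.61, edgeR adjusted p = 0.035). RNA levels do not measure STAT5 activity, which is set by phosphorylation.

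Of the named genes that growth hormone induces, *Socs2*, *Igfals* and *Igf1* fell. *Socs2*, a feedback inhibitor of the pathway and a STAT5 target, was 11.3, 14.7, 30.3, 11.5 and 23.0 CPM in wild-type livers and 3.08, 2.13, 5.22, 1.99 and 2.92 CPM in Ndrg3 LKO livers, and fell by 2.56 ± 0.35 (edgeR adjusted p = 1.69e-04). *Igfals*, the carrier subunit for circulating IGF1, fell by 2.48 ± 0.27 (edgeR adjusted p = 4.15e-05), and *Igf1* by 0.76 ± 0.14 (edgeR adjusted p = 0.00126). *Igf1* did not pass with library-size scaling (log2 fold change −0.24, adjusted p = 0.184). *Cish*, another feedback inhibitor, ranged from 2.86 to 29.4 CPM in wild-type and from 2.36 to 11.1 CPM in Ndrg3 LKO livers and did not pass the test. *Bcl6*, a repressor that opposes STAT5 at shared sites, ranged from 6.57 to 65.6 and from 33.4 to 57.2 CPM and did not pass it either.

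The list of male-biased liver genes moved in 1 direction, as did the *Mup* genes. All 16 listed genes were tested and all 16 fell, beside 23.0% of all genes. Without Ndrg3 LKO replicate 5, 16 of 16 also fell, beside 27.2% of all genes. With library-size scaling 15 fell, beside 1010 of all 11208 genes. The median log2 fold change of the 16 genes with TMM scaling was −2.92, against 0.03 for all genes. The list was chosen with earlier results of these data known, so nothing is read from the count. *Selenbp2*, a selenium-binding protein gene, was 2158 to 3958 CPM in wild-type livers and 1.39 to 31.8 CPM in Ndrg3 LKO livers, a fall by 8.30 ± 0.97 (edgeR adjusted p = 6.38e-05). *Elovl3*, a fatty acid elongase gene, fell by 5.08 ± 0.80 (edgeR adjusted p = 4.26e-04). *Mup3*, the member with the smallest difference, at −3.19, was thus near the middle of this list.

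Of the 16 female-biased genes only 5 had enough counts to be tested, and 4 of them rose, beside 25.6% of all genes (5 of 6 without Ndrg3 LKO replicate 5, beside 28.4%). *Cyp2b9* and *Prom1* reached the filter in 0 wild-type livers and *Cyp2a4* in 2, so these 3 entered the test only through the Ndrg3 LKO livers where they were high, and nothing is read from the count. *Cyp2b9*, a cytochrome P450 gene, was 0.0488 to 0.225 CPM in wild-type and 56.3, 29.0, 94.6, 3.16 and 109 CPM in Ndrg3 LKO livers, a rise by 8.68 ± 0.996 (edgeR adjusted p = 5.58e-05). *Cyp2a4*, another such gene, was 0.537 to 2.34 CPM in wild-type livers and 103, 32.2, 62.4, 51.6 and 1698 CPM in Ndrg3 LKO livers, a rise by 8.36 ± 1.36 (edgeR adjusted p = 5.27e-04). Without replicate 5, which had by far the highest *Cyp2a4* level, the rise was 5.71. The remaining tested gene, *Fmo2*, was between 8.14 and 36.9 CPM over all livers, with a log2 fold change of −0.23 ± 0.43, and 11 genes were too low to be tested.

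MUPs belong to the lipocalins, and the other genes of that family divided. Of 13 listed, 9 were tested, 4 fell and none rose, beside 23.0% and 25.6% of all genes. Without Ndrg3 LKO replicate 5 the number that fell was 6, beside 27.2% of all genes. With library-size scaling 4 fell and 2 rose, beside 1010 lower and 5821 higher of all 11208 genes. With quantile normalization 5 fell and 2 rose, beside 2551 lower and 2953 higher. *Obp2a* and *Orm3* reached the filter in the wild-type livers only, so they entered the test only through the group where they were high. Nothing is therefore read from the count. *Obp2a*, an odorant-binding lipocalin gene, had 1.34 to 6.19 CPM in wild-type livers and a single count in all Ndrg3 LKO livers together (ratio of group levels 468, 95% exact counting interval 83.2 to 18542). *Orm3*, an acute phase lipocalin gene, was 5.12 to 12.7 CPM in wild-type and 0.0285 to 0.129 CPM in Ndrg3 LKO livers and fell by 6.87 ± 0.44 (edgeR adjusted p = 1.77e-06). In contrast, *Rbp4*, the lipocalin that carries retinol in plasma, was 4484 to 5919.7 CPM in wild-type and 5076 to 6534 CPM in Ndrg3 LKO livers (log2 fold change 0.05 ± 0.16), and did not pass the test.

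Since *Mup* RNA comes from hepatocytes, 20 genes of other proteins that hepatocytes secrete were set beside the *Mup* genes. Of these, 12 fell and none rose, beside 23.0% and 25.6% of all genes, with a median log2 fold change of −1.10. Without Ndrg3 LKO replicate 5, 16 fell, beside 27.2% of all genes, and the median was −1.44. With library-size scaling 10 fell and 3 rose, beside 1010 lower and 5821 higher of all 11208 genes. With quantile normalization 7 fell and 5 rose, beside 2551 lower and 2953 higher. *Apoa1*, the main protein of high-density lipoprotein, was 16761 to 24948 CPM in wild-type livers and 2214, 2159.5, 738, 2336 and 13994 CPM in Ndrg3 LKO livers, and fell by 2.34 ± 0.65 (edgeR adjusted p = 0.0110). *Serpina1c*, an alpha-1-antitrypsin gene, fell by 1.65 ± 0.54 (edgeR adjusted p = 0.0247) and did not pass when Ndrg3 LKO replicate 1 or 4 was left out (adjusted p = 0.0578 and 0.0543). *Gc*, the vitamin D-binding protein gene, had a log2 fold change of 0.06 ± 0.16.

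For each liver, the median over a group of genes of the difference from the wild-type mean, on the log2(CPM + 1) scale, shows how these groups stood to each other. In Ndrg3 LKO replicates 1 to 5 the 20 hepatocyte genes were at −1.18, −1.54, −1.02, −1.61 and −0.07. The 7 near-identical *Mup* genes were at −6.12, −6.61, −6.57, −5.75 and −6.42, and the 3 distinct *Mup* genes at −2.94, −5.17, −5.41, −3.80 and −4.30. The 16 male-biased genes were at −2.86, −3.09, −3.76, −2.09 and −2.999. Replicate 5 thus stood near the wild-type livers for the hepatocyte genes and with its own group for the *Mup* and male-biased genes. The pseudocount of 1 limits how low the near-identical genes, several of them under 1 CPM, can appear.

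**Figure D5:**
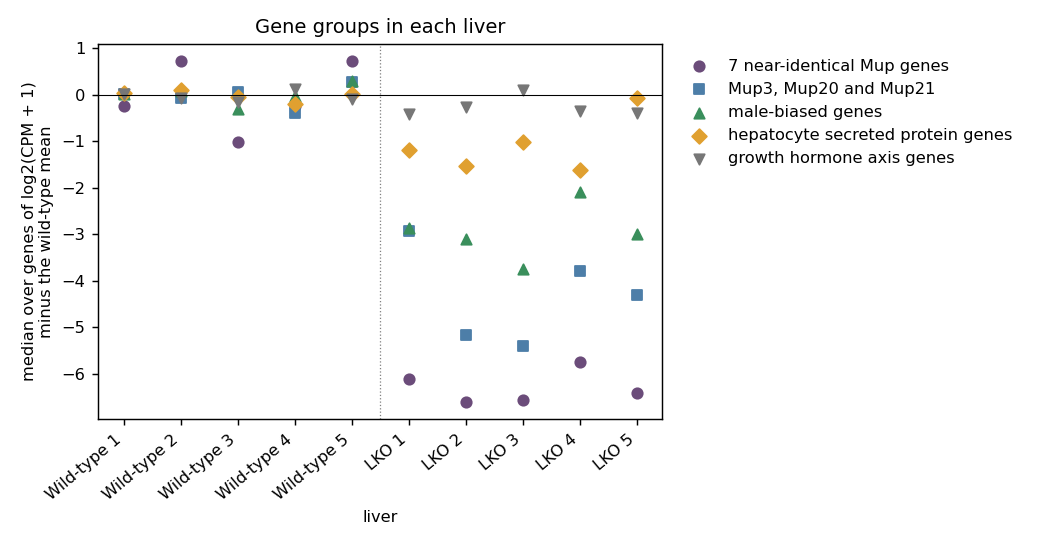
Each symbol is the median over the genes of a group, in 1 liver, of log2(CPM + 1) minus the wild-type mean of that gene, for 5 wild-type and 5 Ndrg3 LKO livers. In Ndrg3 LKO replicate 5 the hepatocyte secreted protein genes are at −0.07 while the 7 near-identical Mup genes are at −6.42 and the male-biased genes at −2.999.

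Transcription factors of hepatocytes, part of the growth hormone list, also moved. *Hnf4a* fell by 1.58 ± 0.21 (edgeR adjusted p = 1.34e-04) and *Cebpa* by 1.76 ± 0.28 (edgeR adjusted p = 4.75e-04), while *Foxa2* rose by 0.79 ± 0.17 (edgeR adjusted p = 0.00281). In both genes that fell, Ndrg3 LKO replicate 5 had the highest level of its group, at 362 CPM for *Hnf4a* and 195 CPM for *Cebpa*, against 181 to 227 and 65.8 to 101 CPM in the other 4.

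Markers of other liver cells were higher in the group in which the *Mup* genes were lower. All 7 tested macrophage markers rose, as did 7 of 8 stellate cell or fibroblast markers and 5 of 6 endothelial markers, beside 25.6% of all genes. Without Ndrg3 LKO replicate 5 the same numbers of these markers rose, beside 28.4% of all genes. Their summed levels were 79.3 to 202 CPM in wild-type and 182 to 564 CPM in Ndrg3 LKO livers for macrophages, 97.1 to 152 and 225 to 291 CPM for stellate cells or fibroblasts, and 67.4 to 83.1 and 123 to 164 CPM for endothelial cells. Of 5 tested cholangiocyte markers 1 rose and 1 fell, and the 8 lymphocyte and neutrophil markers were too low to be tested, with summed levels of 1.13 to 2.51 and 2.18 to 17.3 CPM. None of these markers was at 0 in every liver. *Col1a1* and *Lyve1* reached the filter in 4 wild-type livers and *Rgs5* in 3, and each in 5 Ndrg3 LKO livers. They thus entered the test only with the Ndrg3 LKO livers, where they were high. Nothing is therefore read from the stellate cell or fibroblast and endothelial counts. The part that a changed cell make-up has in the *Mup* levels was not tested.

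Promoter sequences, 250 bases before the start site, were taken from RefSeq on GRCm38.p6 for 7 of the 10 genes (*Mup2*, *Mup3*, *Mup7*, *Mup9*, *Mup14*, *Mup15* and *Mup21*). *Mup1*, *Mup12* and *Mup20* had no entry. The letters TATATAA, searched on both strands, were found in 5 of the 7 and in 3.04% of all 32851 promoters, and also in *Mup6*. The 90 bases that end with this element, marked in capitals, are shown for *Mup2*, *Mup15*, *Mup3* and *Mup21*. Those of *Mup6*, the gene that differed in the opposite direction, can be compared with them. They are read 5′ to 3′ on the strand of each gene. For *Mup2* the stretch is chr4:60139877-60139966 and for *Mup3* chr4:62087322-62087411, that of *Mup15* is chr4:61439723-61439812 and that of *Mup21* chr4:62150843-62150932, also on the minus strand, and that of *Mup6* is chr4:60003369-60003458 on the plus strand.
Mup2: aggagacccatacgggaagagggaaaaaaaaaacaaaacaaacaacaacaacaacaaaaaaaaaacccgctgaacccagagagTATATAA
Mup15: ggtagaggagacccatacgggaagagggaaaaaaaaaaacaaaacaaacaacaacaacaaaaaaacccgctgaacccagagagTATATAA
Mup3: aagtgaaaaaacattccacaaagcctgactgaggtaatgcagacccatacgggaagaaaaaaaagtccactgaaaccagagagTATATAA
Mup21: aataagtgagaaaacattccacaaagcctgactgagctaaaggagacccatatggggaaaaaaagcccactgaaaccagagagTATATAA
Mup6: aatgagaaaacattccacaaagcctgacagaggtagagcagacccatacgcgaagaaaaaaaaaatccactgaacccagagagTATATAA

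Of the near-identical genes with an entry, only *Mup2*, *Mup9* and *Mup15* had the element in these windows, and *Mup7* and *Mup14* did not. Where found in members, the element began 8 (*Mup21*) to 31 (*Mup9*) bases before the annotated start. Whether the placing of the start accounts for its absence in *Mup7* and *Mup14* was not tested. The A-rich stretch before the element was longer in *Mup2*, *Mup9* and *Mup15*. Between the letters CCCATA and TATATAA lay 71 bases in *Mup2*, 70 in *Mup9* and 66 in *Mup15*, but 34 in *Mup3*, 31 in *Mup21* and 35 in *Mup6*. In this respect *Mup6* resembled *Mup3* and *Mup21*, while *Mup20*, the other distinct gene, had no entry. The STAT5 consensus TTCNNNGAA, searched on both strands, was in none of the 7 windows and in 7.02% of all promoters. TGTTTAC, a FOXA motif, and GTTAAT, a part of the HNF1 site, were likewise in none of the 7, and in 3.17% and 6.43% of all promoters. CAAAGT, the core of an HNF4 site, was in *Mup3*, *Mup7* and *Mup21* and in 12.6% of all promoters. A match is a run of letters and not a bound site, and sequence further from the start site was not searched.

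The genes outside the family whose levels over the 10 livers were most like the summed *Mup* level, by Pearson's r of log2(CPM + 1) with the log2 sum, were *2310001H17Rik* (r = 0.996), *Nelfcd* (0.989), *Keg1* (0.988), *Mmp15* (0.988) and *Acbd4* (0.988). The 10 livers form separate groups by genotype, so these coefficients include the gap between the groups and serve as a description. *Keg1* was 135 to 222 CPM in wild-type and 7.54 to 39.6 CPM in Ndrg3 LKO livers (log2 fold change −3.09 ± 0.45 (SE)), and *2310001H17Rik* 12.1 to 17.4 and 1.26 to 4.62 CPM (−2.37 ± 0.34). *Nelfcd* and *Acbd4* varied over a much smaller range, with log2 fold changes of −0.82 ± 0.13 and −0.61 ± 0.13.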

How the data were processed

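The authors isolated RNA from 10 livers, prepared stranded mRNA libraries and, per the labels' processing notes, used bcl2fastq, Trim Galore 0.6.4, STAR 2.7.3a and Cufflinks 2.2.1 with mm9. The deposited values are raw counts per gene symbol, without normalization, although the files are named for CPM. The study's methods instead name another STAR version and its count module as the counter. The annotation and the strand setting are not given in the sources used here. Reads shared by near-identical genes may be dropped or misplaced. Groups follow the genotype labels, and replicates are separate livers.

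A gene had to reach 1 CPM in 5 or more livers (4 when 1 liver was left out) to be fitted with edgeR 4.0.16 in R 4.3.3, using TMM scaling, the quasi-likelihood test and Benjamini-Hochberg adjustment over all genes tested, at 0.05. Standard errors (SE) come from the same fit. Total counts of 20872262 to 30450057 make 3 counts equal to 0.0985 to 0.144 CPM. On simulated counts for the 11208 genes of wild-type against Ndrg3 LKO livers, edgeR recovered 157 of 200 changed genes, with 8 false calls. It recovered all 93 genes changed 4-fold and 64 of 107 changed 2-fold. Far fewer genes were changed in the simulation than were called in the livers. The false calls therefore do not measure those under so wide a change, nor the effect of the scaling. All 20 same-genotype pairs of libraries were further apart than counting alone allows (chi-square divided by its degrees of freedom, 27.3 to 544).

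Transcripts and coding sequences came from the GENCODE annotation of NCBIM37 (mm9), where 20945 of the 24052 symbols were found, and were aligned with MAFFT 7.526. Stretches of 100 bases were compared with 63485 transcripts, allowing no mismatch. These were all protein-coding transcripts and, for part of the genome that includes the *Mup* cluster, the other annotated ones. The genome outside transcripts was not searched. Promoters came from RefSeq.

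The members and gene lists were chosen with earlier results of these data known. Named were all members, *Ndrg3*, fixed growth hormone genes, the 2 largest rises and falls past the threshold in each other list, the tested neighbours past it, and the 5 most similar genes. *Mup6*, *Mup8*, the untested *Mup* genes and all others were chosen after their values were seen. Alternatives were library-size, median-of-ratios and quantile scaling, library sizes without the *Mup* counts, limma 3.58.1, DESeq2 1.42.0, no filter, a replicate block, leaving out each liver, and unique positions as length. Scaling to *Alb* and the shares without Ndrg3 LKO replicate 5 were added after seeing the data.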

Additional observations from a re-analysis of the deposited data

Results flagged for a closer look

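In 82 groups of 5 livers, the highest or the lowest liver was compared with its nearest neighbour by Dixon's ratio (critical value 0.71), which chance exceeds in about 1 in 20 groups. It was exceeded 10 times. Of the *Mup* genes, *Mup20* stood out in wild-type replicate 5 (12889 CPM, gap over range 0.714) and *Mup14* in Ndrg3 LKO replicate 4 (8.75 CPM, 0.823). Of the other genes, Ndrg3 LKO replicate 5 was the highest of its group for *Ghr* (303 CPM, 0.724), *Cyp2a4* (1698 CPM, 0.957), *Apoa1* (13994 CPM, 0.879), *Serpina1c* (4242 CPM, 0.763) and *Obp2a* (0.0471 CPM, 1.0, a single count against 0 in the other 4), and the lowest for *Stat5a* (7.45 CPM, 0.897). In wild-type livers, *Stat5b* was lowest in replicate 3 (30.8 CPM, 0.721) and *Obp2a* highest in replicate 5 (6.19 CPM, 0.774). Ndrg3 LKO replicate 5 accounts for 6 of the 10.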

How the results depend on the processing

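All 10 *Mup* genes were lower in Ndrg3 LKO livers under each of 18 alternatives, with log2 fold changes from −3.57 to −2.65 for *Mup3*, −4.59 to −3.59 for *Mup20*, −6.79 to −5.84 for *Mup21*, −7.94 to −6.61 for *Mup7*, −10.03 (without Ndrg3 LKO replicate 4) to −8.33 for *Mup14*, −8.19 to −6.87 for *Mup1* and −8.72 to −6.30 (quantile normalization) for *Mup12*. For *Mup2*, *Mup9* and *Mup15* they ranged from −9.46, −8.94 and −10.6 to −2.96, −3.14 and −2.45, the small values coming from a pseudocount of 1. The summed level gave −4.14, between −4.41 and −3.81 with 1 liver left out, −3.63 with library-size scaling, −3.40 with quantile normalization and −2.55 per *Alb* count. Leaving out 1 liver gave 4703 to 6360 changed genes against 5443, 8 to 12 of the growth hormone list, 16 male-biased, 4 to 5 female-biased, 4 to 6 lipocalin, 9 to 16 hepatocyte genes and 4 neighbours. Library-size scaling moved the median of all genes by 0.53 and the split from 2865 higher and 2578 lower to 5821 and 1010; it reversed *Jak2* (0.089), *Stat5b* (0.41), *Fkbp15* (0.13) and *Slc31a1* (0.10). *Stat5a*, between −0.067 and 0.142 with 1 liver left out, reversed without wild-type replicate 3. DESeq2 called 2 female-biased genes and the unfiltered fit 9, against 4. Quantile normalization called 7 lipocalin genes, 2 of them higher, against 4 lower. In a fit with a replicate block, 4412 genes and 2 neighbours were called, and *Jak2*, *Fkbp15* and *Slc31a1* did not pass. The numbers are not shown to pair livers, since correlations of same-numbered livers ranged from −0.357 to 0.0363 and 0 of 5 wild-type livers correlated best with their own number. The causes were not tested. Levels of near-identical genes are limited by shared reads, and *Mup2* and *Mup15* by depth.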
